A study of Mus musculus with 8 samples.

Results

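Bone marrow stromal cells kept in microgravity during a space flight were compared with the same cells kept in ground hardware: 2 microgravity arrays and 2 ground unit arrays, 4 of the 8 arrays in the series. They were chosen by their titles and paired by medium, with 1 array in growth medium and 1 in osteoinductive medium on each side. The stromal cells came from the femurs and tibiae of C57BL/6 mice aged 6 to 8 weeks, were expanded as adherent cells in serum-containing Coon's modified Ham's F12 medium without added cytokines, and were then seeded on Skelite, a resorbable calcium phosphate scaffold, inside Kayser Italia incubation units. The microgravity constructs flew in fully automated hardware in the KUBIK incubator of ESA. The ground unit constructs stayed at normal gravity in units that were operated by hand. The centrifuge constructs flew in the same automated hardware on a 1g centrifuge inside KUBIK, and the culture dish constructs stayed on the ground in culture wells. Each of these conditions has 1 array in growth medium and 1 in osteoinductive medium. Flight, automated operation and microgravity differ together between the microgravity and ground unit arrays and cannot be told apart in this comparison. Whether each array had a culture or animal of its own is not stated in the labels. With 1 array for each condition and medium, there is no spread between replicates to measure. The p-values take as error how far the medium effect varies between conditions, pooled over all 8 arrays. That variation may be technical or a real difference in response between media. The titles place the centrifuge samples at 1g although their gravity label reads microgravity, and one description of the osteoinductive centrifuge sample names growth medium; titles were followed.

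Bone marrow stromal cells are adherent, fibroblast-like cells that make collagen-rich matrix and can turn into osteoblasts, adipocytes or chondrocytes. In living animals, bone loses mass when it is unloaded, and stromal cells are among the cells whose response to load has been studied for that reason. Dividing cells express the genes of DNA replication and the mitotic spindle, secretory cells express the chaperones of the endoplasmic reticulum, and cells that sense viral nucleic acid or interferon express the interferon-stimulated genes. Imprinted genes, which are transcribed from the copy of one parent only, are expressed mostly in fetal tissue and are silenced in many adult cells.

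The stromal markers *Col1a1* and *Pdgfrb* were bright on all 4 arrays, while *Thy1* was dimmer. Of 15 stromal markers tested, 2 were called higher in microgravity and 4 lower, as given further below. Levels below are log2 intensities, and a pair of values is always growth medium first and osteoinductive medium second. *Col1a1*, the main collagen of bone, was at 12.56 and 12.77 on the microgravity arrays and 12.64 and 12.66 on the ground unit arrays. *Pdgfrb*, a receptor of stromal cells, was at 9.96 and 10.64 on the microgravity arrays and 10.94 and 11.04 on the ground unit arrays, and *Thy1*, a surface marker of mesenchymal cells, was at 7.88 and 7.65 on the microgravity arrays and 7.36 and 7.73 on the ground unit arrays. *Fkbp5*, known as a glucocorticoid target, was at 8.94 and 11.41 on the microgravity arrays and 9.05 and 10.96 on the ground unit arrays, so that both osteoinductive arrays lay above both growth arrays. Median intensity was between 181 and 196 on the 8 arrays. With 2 arrays a side, the number of arrays limits the precision, and the spread was estimated with limma from a fit over all 8 arrays with a term for medium.

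Microgravity and ground unit arrays differed in a large share of genes. Of 13205 genes above the 40th percentile of mean level (a log2 intensity of 7.14), 3789 (28.7%) passed an adjusted p of 0.05, 1402 higher in microgravity (10.6%) and 2387 lower (18.1%). Larger changes ran mostly upward: among the genes that passed, 365 were over 1 on the log2 scale and 97 were under −1. The median difference over all genes tested was −0.09. Every one of the 3789 genes had the same sign in both media, and for 3634 of them the microgravity values did not overlap the ground unit values. Disagreement between media is part of the error in the fit, so a gene with opposite signs can hardly pass. The shared sign is therefore largely set by the selection. Of all tested genes, 63.1% did not overlap between the groups, 23.0% with both microgravity arrays above and 40.1% with both below. Among all 19938 genes measured, dim ones included, 4030 passed (20.2%), 1914 higher (9.60%) and 2116 lower (10.6%). Lists of cell identity, imprinted, fetal growth, *Hox*, Y-linked and microRNA genes are read against that unfiltered background. Their members are dim where they are not expressed. All other lists, those of stromal, osteoblast and adipogenic genes among them, are read against the filtered one. Where a list's share of calls is near its background, the count says little about that list. Single arrays are named below by condition and medium, and each was left out alone. Over the filtered genes the count was 1377 without the microgravity growth array, 1851 without the ground growth array and 1481 without the ground osteoinductive array.

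**Figure D1:**
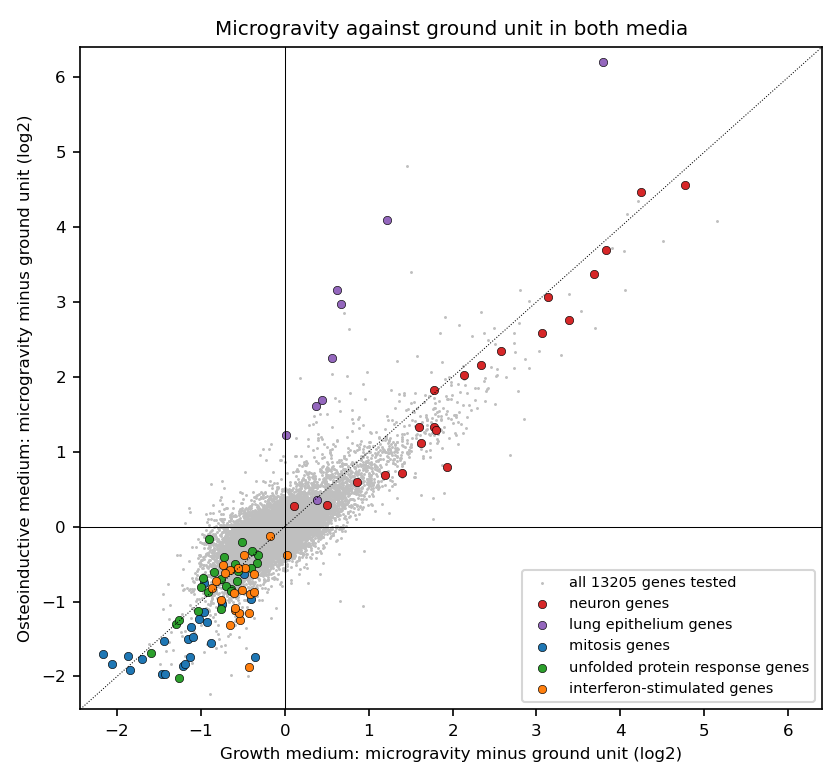
Log2 difference of microgravity minus ground unit in growth medium (x axis) and in osteoinductive medium (y axis), 1 point a gene for the 13205 genes tested, with members of 5 gene lists in colour and the diagonal dotted. Neuron genes lie at the upper right near the diagonal, lung epithelium genes lie above it, and mitosis, unfolded protein response and interferon-stimulated genes lie at the lower left.

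Both media gave much the same ordering of genes. The difference within a medium had an SD across genes of 0.499 for growth medium and 0.447 for osteoinductive medium, and the differences correlated at r = 0.817 across genes, which are not independent replicates and share the normalization of the arrays. The same SD was 0.145 and 0.154 for the culture dish against the ground unit, both on the ground. For microgravity against the centrifuge, both in flight, it was 0.283 and 0.218.

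Neuron genes were higher in microgravity as a list. Of 25 neuron genes measured, 23 were higher in microgravity and none lower, with a median difference of 1.68 against −0.02 over all genes measured. *Gpm6a*, a membrane glycoprotein of growing neurites, was at 11.36 and 10.96 on the microgravity arrays and 6.59 and 6.40 on the ground unit arrays, a difference of 4.66 ± 0.15 (SE) with an adjusted p of 8.7e-09 (limma, Benjamini-Hochberg). *Stmn2*, a microtubule regulator of growth cones, was at 11.44 and 11.13 on the microgravity arrays and 7.19 and 6.66 on the ground unit arrays, 4.36 ± 0.12 apart (adjusted p = 3.6e-09). For both genes the gap between conditions was many times the gap between media, and the groups did not overlap. *Dcx*, the microtubule-binding protein of migrating young neurons, was at 10.03 and 9.68 on the microgravity arrays and 6.89 and 6.61 on the ground unit arrays and rose by 3.10 ± 0.12 (adjusted p = 2.9e-08). *Tubb3*, neuronal beta-tubulin, was at 10.08 and 9.69 on the microgravity arrays and 7.51 and 7.35 on the ground unit arrays and rose by 2.46 ± 0.12 (adjusted p = 3e-07). The list also held parts of the synapse: *Gria2*, a glutamate receptor subunit, rose by 3.53 ± 0.21, *Syt1*, the calcium sensor of synaptic vesicles, by 3.07 ± 0.18, and *Nsg2*, a protein of neuronal endosomes, by 2.83 ± 0.16. *Gap43*, a growth cone protein, was bright on all 4 arrays, at 12.00 and 11.42 on the microgravity arrays and 11.14 and 10.82 on the ground unit arrays, and rose by 0.73 ± 0.13 (adjusted p = 0.0020). Among the brightest called genes, the tubulin *Tuba1a*, whose probes may also read its near-identical family members, was at 12.49 and 12.24 on the microgravity arrays and 11.14 and 11.02 on the ground unit arrays (difference 1.28 ± 0.12). The summed intensity of the neuron list was 20408 to 26489 on the microgravity arrays and 7028 to 7358 on the ground unit arrays.

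Genes of neural progenitors and glia followed with 10 of 17 higher, none lower and a median of 0.51. *Fabp7*, a fatty acid carrier of radial glia, was at 10.10 and 9.37 on the microgravity arrays and 6.40 and 6.72 on the ground unit arrays and rose by 3.18 ± 0.24 (adjusted p = 5.9e-06). *Sox11*, a transcription factor of immature neurons, rose by 2.79 ± 0.24, *Ptprz1*, a phosphatase of glial progenitors, by 2.34 ± 0.22, and *Zic1*, a transcription factor of the dorsal neural tube, by 1.75 ± 0.18. *Nes*, the intermediate filament of progenitors, was at 7.46 and 7.39 on the microgravity arrays and 6.64 and 6.60 on the ground unit arrays and rose by 0.81 ± 0.13 (adjusted p = 0.0013). In these genes both microgravity arrays lay above both ground unit arrays. The list's summed intensity was 4432 to 6118 in microgravity and 2478 to 2567 in the ground unit. In these bulk samples, more cells of a type and more RNA of its genes per cell cannot be told apart. Whether RNA of another tissue was in the samples was not tested.

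Several imprinted genes were among those furthest above the ground unit. Of 22 measured, 12 were higher and 2 lower, with a median of 0.63. No member was lower without the microgravity growth array, without either ground unit array, under quantile normalization or without a term for medium. *Mest*, an enzyme-like protein of fetal mesoderm, was at 10.06 and 10.58 on the microgravity arrays and 5.85 and 6.23 on the ground unit arrays and rose by 4.28 ± 0.19 (adjusted p = 1.3e-07). *Ndn*, necdin, a growth suppressor of postmitotic neurons, was at 10.82 and 10.15 on the microgravity arrays and 5.67 and 6.07 on the ground unit arrays and rose by 4.62 ± 0.28 (adjusted p = 1.4e-06). *Igf2*, the fetal insulin-like growth factor, was at 10.62 and 10.57 on the microgravity arrays and 7.84 and 7.85 on the ground unit arrays and rose by 2.75 ± 0.12 (adjusted p = 7.2e-08). In all of them both microgravity arrays stood far above both ground unit arrays. *Nnat*, neuronatin, rose by 2.96 ± 0.12, *Peg3*, a zinc finger protein, by 2.60 ± 0.18, and *Cdkn1c*, an inhibitor of cyclin-dependent kinases, by 1.64 ± 0.13. On the centrifuge arrays *Mest* was at 9.51 and 9.04, *Ndn* at 10.54 and 9.37 and *Igf2* at 10.53 and 10.35, in each medium above the ground unit and below microgravity.

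The imprinted region between *Dlk1* and *Dio3* on chromosome 12 carries *Meg3*, a long noncoding RNA, and a long cluster of microRNA genes that are transcribed with it from the maternal copy. *Meg3* was at 11.26 and 11.17 on the microgravity arrays and 7.35 and 7.45 on the ground unit arrays and rose by 3.82 ± 0.13, or 14.1-fold (adjusted p = 1.6e-08). *Dlk1*, the paternally expressed membrane ligand next to *Meg3*, was at 9.88 and 10.78 on the microgravity arrays and 8.31 and 8.50 on the ground unit arrays. It rose by 1.93 ± 0.22 (adjusted p = 0.00012). Of 40 microRNA genes in the region, grouped by their place in the RefSeq gene order after the values had been seen, 35 were higher, none was lower and the median was 0.87. Of 251 other microRNA genes, 26 were higher and 3 lower, with a median of 0.08, and 14, 10 and 12 were higher without the microgravity growth, ground growth and ground osteoinductive array. Without the last of these, 1 was lower. *Mir487b* was at 8.79 and 8.56 on the microgravity arrays and 6.36 and 6.08 on the ground unit arrays (difference 2.45 ± 0.19, adjusted p = 7.8e-06), and *Mir377* was at 7.06 and 6.98 on the microgravity arrays and 4.80 and 4.39 on the ground unit arrays (difference 2.42 ± 0.20, adjusted p = 1e-05). Next came *Mir380* at 6.65 and 6.87 on the microgravity arrays and 4.21 and 4.71 on the ground unit arrays, with a difference of 2.30 ± 0.21. The members that did not pass included *Mir299a*, at a difference of −0.17, *Mir666*, *Mir667*, *Mir668* and *Mir485*. The probe sets read the RNA of the precursor region and not the mature microRNA, and many were dim: at the 40th percentile filter 17 of the genes were tested and 14 called, so the list rests on the fit over all genes measured. Summed intensity over the 40 genes was 9065 to 9875 in microgravity and 5322 to 5435 in the ground unit.

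All 40 genes had RefSeq mature sequences (76 in all), and 9 of these are printed here 5′ to 3′ with the seed, bases 2 to 8, in capitals, to show what the raised precursors encode. They are 1 arm each of the 5 genes with the largest differences, and the arms that share a seed with another gene of the region: miR-379-3p with miR-411-3p, and miR-376b-5p with miR-376c-5p. The precursor gene *Mir376c* had a smaller difference, 0.91.
miR-487b-5p: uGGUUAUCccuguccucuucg
miR-377-3p: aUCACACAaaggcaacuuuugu
miR-380-3p: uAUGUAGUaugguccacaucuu
miR-300-3p: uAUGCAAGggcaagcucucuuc
miR-329-3p: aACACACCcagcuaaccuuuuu
miR-379-3p: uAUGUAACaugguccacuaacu
miR-411-3p: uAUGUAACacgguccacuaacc
miR-376b-5p: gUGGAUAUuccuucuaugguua
miR-376c-5p: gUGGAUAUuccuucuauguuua
*Mir379* rose by 1.58 ± 0.12 and *Mir411* by 1.57 ± 0.27, each with both microgravity arrays above both ground unit arrays.

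**Figure D2:**
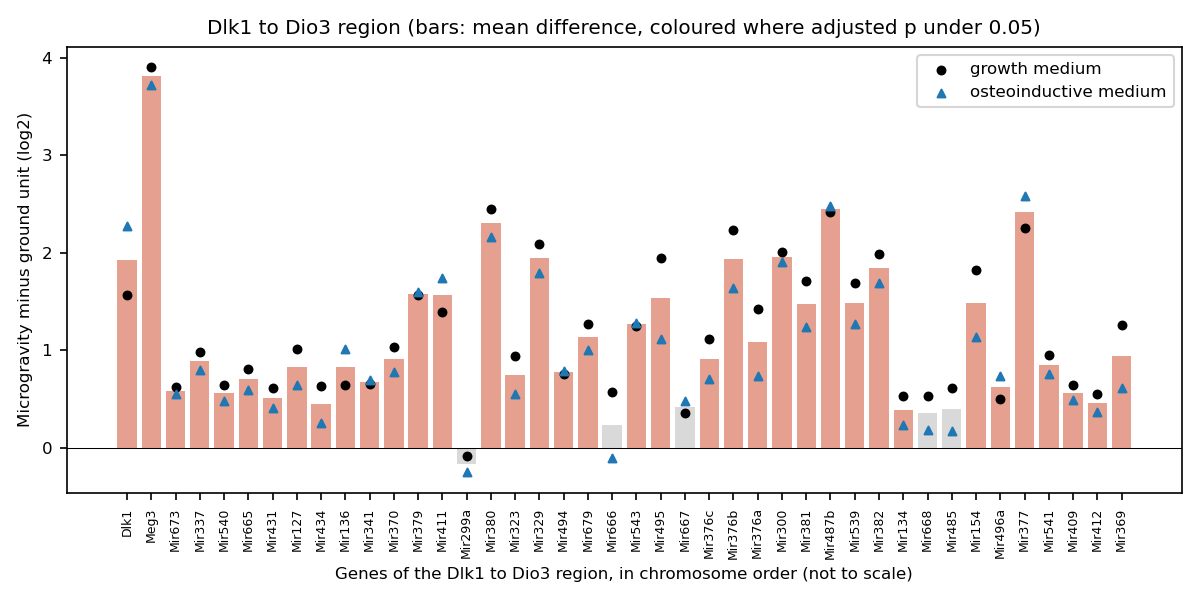
Log2 difference of microgravity minus ground unit for *Dlk1*, *Meg3* and microRNA genes of the region in chromosome order (x axis, not to scale), with the difference in growth medium as circles, in osteoinductive medium as triangles and their mean as a bar, red where the adjusted p was under 0.05 and grey otherwise. *Meg3* stands highest at 3.82, and *Mir299a* at −0.17 has both media below 0.

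Skeletal muscle genes were higher in 14 of 21, with none lower and a median of 0.89. *Acta1*, the actin of skeletal muscle fibres, was at 10.87 and 10.16 on the microgravity arrays and 8.46 and 8.33 on the ground unit arrays and rose by 2.12 ± 0.16 (adjusted p = 7.7e-06). *Myh8*, the perinatal myosin heavy chain, was at 10.24 and 9.92 on the microgravity arrays and 7.74 and 7.49 on the ground unit arrays and rose by 2.47 ± 0.13 (adjusted p = 5.2e-07). *Myh3*, the embryonic myosin heavy chain, was at 8.51 and 8.03 on the microgravity arrays and 6.64 and 6.59 on the ground unit arrays and rose by 1.65 ± 0.15 (adjusted p = 2e-05). These contractile genes did not overlap between the conditions. *Ttn*, titin, rose by 2.07 ± 0.12, *Myl1*, a myosin light chain, by 1.81 ± 0.17, and *Ckm*, muscle creatine kinase, by 1.60 ± 0.16. *Myog*, the transcription factor that drives fibre formation, was at 6.98 and 6.66 on the microgravity arrays and 6.59 and 6.79 on the ground unit arrays, dim on all 4 arrays, and overlapped (difference 0.13, adjusted p = 0.59). The list's summed intensity was 8811 to 10672 in microgravity and 4035 to 4107 in the ground unit.

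Heart muscle genes were higher in 5 of 13 and lower in none, with a median of 0.37, and had 3 calls without the ground osteoinductive array. *Actc1*, cardiac actin, which fetal skeletal muscle also makes, was at 10.83 and 11.00 on the microgravity arrays and 8.46 and 8.42 on the ground unit arrays and rose by 2.48 ± 0.13 (adjusted p = 5.7e-07). *Ryr2*, the calcium release channel, rose by 0.71 ± 0.12. *Nppa* and *Myh6* did not pass, at differences of 0.08 and 0.37. *Myh7* and *Myl7* were called higher, with differences of 0.36 to 0.70 and 0.25 to 0.72 over the alternatives. Both calls were lost without either ground unit array.

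Lung epithelium genes were higher in 9 of 14 and lower in none, with a median of 1.03, and their difference was much larger in osteoinductive medium (median 1.65) than in growth medium (median 0.42). *Sftpc*, the surfactant protein made by alveolar type II cells, was at 10.56 and 12.81 on the microgravity arrays and 6.78 and 6.61 on the ground unit arrays, a difference of 3.79 with growth medium and 6.20 with osteoinductive medium (5.00 ± 0.49 in the fit, adjusted p = 3.4e-05). *Scgb1a1*, the secretory protein of airway club cells, was at 6.85 and 9.61 on the microgravity arrays and 4.93 and 5.44 on the ground unit arrays and rose by 3.04 ± 0.49 (adjusted p = 0.0014). *Slc34a2*, a phosphate carrier of alveolar cells, was at 7.94 and 10.80 on the microgravity arrays and 6.72 and 6.71 on the ground unit arrays and rose by 2.65 ± 0.52 (adjusted p = 0.0044). The osteoinductive microgravity array stood above every other array for these genes, by more than 2 on the log2 scale. *Sftpa1*, *Sftpb* and *Cldn18* rose by 1.89, 1.40 and 1.82, and their calls were lost without the ground osteoinductive array (adjusted p up to 0.10, 0.12 and 0.085 over the alternatives). Without that array the list had 3 calls. The list's summed intensity was 4133 and 16361 in microgravity, 1957 to 1962 in the ground unit and 2927 to 3357 on the centrifuge arrays.

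Other organ lists were mixed. In the list of liver and yolk sac genes 2 of 16 were higher, led by *Ttr*, transthyretin, which the choroid plexus also makes: it was at 10.90 and 10.47 on the microgravity arrays and 6.84 and 7.32 on the ground unit arrays and rose by 3.61 ± 0.20 (adjusted p = 8.5e-07). *Afp*, alpha-fetoprotein, was dim and overlapped, at a difference of −0.10, and *Alb*, albumin, was at 6.36 and 7.58 on the microgravity arrays and 6.37 and 5.92 on the ground unit arrays and did not pass (adjusted p = 0.056). The list had 1 call without either osteoinductive array of the comparison. Of 8 red cell genes 1 was higher, *Alas2*, a heme synthesis enzyme, at 6.93 and 7.83 on the microgravity arrays and 6.68 and 6.68 on the ground unit arrays; its call was lost without the microgravity or ground osteoinductive array (adjusted p up to 0.21). The red cell count was 3 without either centrifuge array, and the embryonic globin *Hbb-y* was dim throughout. Kidney and gut genes had 1 higher and 1 lower of 14, with *Umod* and *Slc12a1*, both kidney tubule genes, dim on all arrays. The higher call was lost without the microgravity growth array or either ground unit array, and the lower call without either osteoinductive array of the comparison.

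Epithelium and skin genes were higher in 10 of 19 and lower in none, with a median of 0.53, and the count was 4 without the microgravity osteoinductive array and 2 without the ground osteoinductive array. *Spint2*, a protease inhibitor of epithelia, was at 8.59 and 8.93 on the microgravity arrays and 7.51 and 7.67 on the ground unit arrays and rose by 1.17 ± 0.14 (adjusted p = 0.00015). *Perp*, a desmosome protein, was at 7.64 and 7.57 on the microgravity arrays and 6.67 and 6.76 on the ground unit arrays and rose by 0.90 ± 0.12 (adjusted p = 0.00035). *Cdh1*, the adherens junction protein E-cadherin, was at 7.55 and 8.16 on the microgravity arrays and 7.31 and 7.34 on the ground unit arrays, and its call was lost without the microgravity osteoinductive array, either ground unit array or either centrifuge array, with differences from 0.23 to 0.84 over the alternatives and adjusted p up to 0.32.

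Endothelial genes were higher in 13 of 17 and lower in none, with a median of 0.72, and as with lung epithelium the median was larger in osteoinductive medium (1.05) than in growth medium (0.38). *Pecam1*, a junction protein of vessels, was at 7.75 and 8.86 on the microgravity arrays and 6.82 and 6.95 on the ground unit arrays and rose by 1.42 ± 0.21 (adjusted p = 0.00077). *Kdr*, the main receptor for VEGF, was at 7.66 and 8.44 on the microgravity arrays and 6.70 and 6.73 on the ground unit arrays and rose by 1.33 ± 0.18 (adjusted p = 0.00036). *Cldn5*, a tight junction protein, was at 8.85 and 9.09 on the microgravity arrays and 8.11 and 7.90 on the ground unit arrays and rose by 0.97 ± 0.13 (adjusted p = 0.00038). For each of these, both microgravity arrays stood above both ground unit arrays. The count was 7 without the microgravity osteoinductive array and 6 without the ground osteoinductive array. Macrophage genes had 1 of 19 higher (2 without the microgravity growth array or either culture dish array), the mannose receptor *Mrc1* at 7.50 and 7.73 on the microgravity arrays and 6.82 and 6.69 on the ground unit arrays (adjusted p = 0.0011), and a median of −0.00. *Csf1r*, the macrophage growth factor receptor, was at 8.09 and 7.88 on the microgravity arrays and 8.14 and 7.85 on the ground unit arrays.

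Genes of cartilage were higher in 10 of 18 and lower in none, with a median of 0.48. *Col2a1*, the fibrillar collagen of cartilage, was at 9.77 and 9.68 on the microgravity arrays and 8.54 and 8.69 on the ground unit arrays and rose by 1.11 ± 0.14 (adjusted p = 0.00018). *Acan*, the large proteoglycan aggrecan, was at 8.04 and 7.55 on the microgravity arrays and 6.97 and 6.71 on the ground unit arrays and rose by 0.95 ± 0.14 (adjusted p = 0.00053). *Hapln1*, which links aggrecan to hyaluronan, rose by 1.30 ± 0.21 and *Matn1*, a cartilage matrix protein, by 0.98 ± 0.14. *Sox9*, a transcription factor of cartilage cells, did not pass, at 9.29 and 9.72 on the microgravity arrays and 9.70 and 9.94 on the ground unit arrays. *Sox5* and *Sox6* were called higher, with differences of 0.37 to 0.60 and 0.50 to 0.73 over the alternatives. Both calls were lost without the microgravity or the ground growth array. The count was 4 without the microgravity or the ground growth array and 5 without the ground osteoinductive array.

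Of 3 Y-linked genes measured 2 were higher in microgravity. *Eif2s3y*, a translation factor subunit, was at 7.10 and 6.58 on the microgravity arrays and 5.14 and 5.21 on the ground unit arrays and rose by 1.67 ± 0.22 (adjusted p = 0.00029), and *Uty*, a histone demethylase relative, was at 5.97 and 6.08 on the microgravity arrays and 5.18 and 5.05 on the ground unit arrays and rose by 0.91 ± 0.14 (adjusted p = 0.00075). *Kdm5d*, another histone demethylase, was at 6.49 and 6.39 on the microgravity arrays and 6.10 and 5.92 on the ground unit arrays and did not pass (adjusted p = 0.053). All of them were dim, under the filter level of 7.14 on all 4 arrays, and *Eif2s3y* was at 6.81 and 6.09 on the centrifuge arrays. *Xist*, the noncoding RNA that silences an X chromosome, was bright on all 4 arrays, at 10.48 and 10.94 on the microgravity arrays and 10.56 and 10.42 on the ground unit arrays, and did not pass (adjusted p = 0.35).

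Among *Hox* genes, which mark position along the body axis, 2 of 30 were higher and 3 lower. Over all genes measured 9.60% were higher and 10.6% lower, so the *Hox* counts did not exceed that background. *Hoxa11*, expressed in the forearm and lower leg, was at 7.37 and 7.22 on the microgravity arrays and 7.72 and 8.10 on the ground unit arrays and fell by 0.62 (adjusted p = 0.011), a call lost without the microgravity or ground osteoinductive array (adjusted p up to 0.22). The number lower was 0 without the ground osteoinductive array, 1 without any other array of the comparison and 5 under quantile normalization. The number higher was 0 without the microgravity growth or the ground osteoinductive array and 1 without the ground growth array. Of 12 fetal growth and RNA-binding genes 3 were higher, among them *Igf2bp3*, at 8.36 and 7.14 on the microgravity arrays and 6.23 and 6.38 on the ground unit arrays (adjusted p = 0.0018). The number higher there was 1 without the microgravity or ground growth array. *Hmga2*, a chromatin protein of fetal and cultured mesenchymal cells, did not pass, at 10.99 and 11.23 on the microgravity arrays and 11.36 and 11.41 on the ground unit arrays. The part of any other cell type's RNA in the differences described here was not tested.

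**Figure D3:**
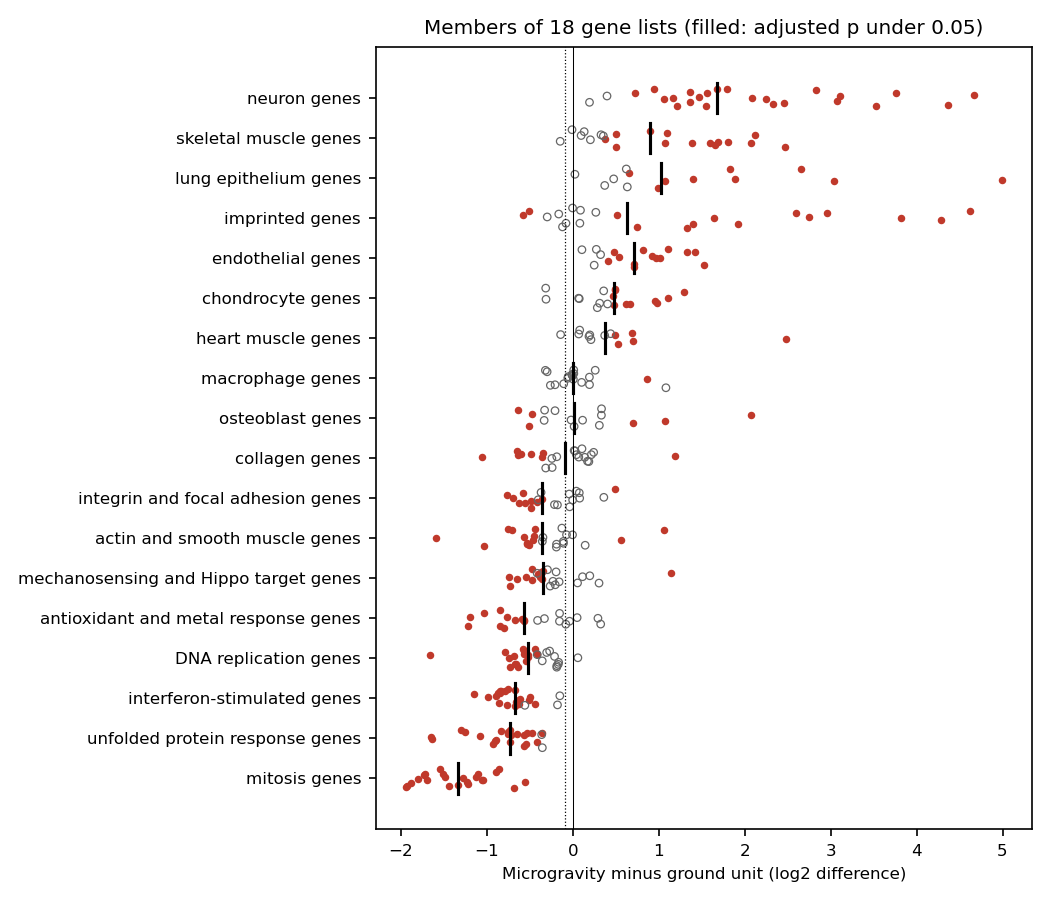
Log2 difference of microgravity minus ground unit (x axis) for the members of 18 gene lists, with filled points for genes whose adjusted p was under 0.05, open points for the others, a black bar for the list's median and a dotted line for the median of all tested genes (−0.09). Neuron genes have a median of 1.68 and mitosis genes of −1.33.

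Mitosis genes fell as a whole list. All 23 mitosis genes tested were lower in microgravity, with a median of −1.33 against −0.09 over all genes tested. Without the filter all 25 measured were lower, with a median of −1.28 against −0.02 over all genes measured. *Bub1*, a kinase of the spindle checkpoint, was at 6.75 and 6.50 on the microgravity arrays and 8.81 and 8.33 on the ground unit arrays and fell by 1.94 ± 0.17 (adjusted p = 7.5e-06). *Cenpe*, the kinesin that moves chromosomes to the spindle equator, was at 6.28 and 6.56 on the microgravity arrays and 8.44 and 8.26 on the ground unit arrays and fell by 1.93 ± 0.16 (adjusted p = 5.8e-06). *Kif11*, the kinesin that separates spindle poles, was at 6.78 and 6.63 on the microgravity arrays and 8.65 and 8.35 on the ground unit arrays and fell by 1.80 ± 0.13 (adjusted p = 2.5e-06). Neither group overlapped the other in these genes. *Plk1*, a kinase of mitotic entry, was at 8.33 and 7.87 on the microgravity arrays and 9.21 and 9.42 on the ground unit arrays (difference −1.21 ± 0.15), and *Aurkb*, the kinase of the chromosomal passenger complex, was at 8.06 and 7.88 on the microgravity arrays and 8.81 and 8.91 on the ground unit arrays (difference −0.89 ± 0.13). *Top2a*, which untangles DNA before segregation, was at 8.81 and 8.13 on the microgravity arrays and 10.23 and 10.11 on the ground unit arrays and fell by 1.70 ± 0.20. *Anln*, *Ect2* and *Kif23*, which work in cytokinesis, fell, with differences of −1.88, −1.73 and −1.72. The list's summed intensity was 4022 to 5256 in microgravity and 11780 to 11958 in the ground unit.

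Mitosis genes share a promoter element, the cell cycle genes homology region (CHR), with the letters TTTGAA. Promoters were taken from RefSeq on GRCm38.p6, from 250 bases before to 50 after each gene's start, and searched on both strands. The CHR letters were in 17 of the 21 mitosis genes with a promoter (81.0%), in 5 of 22 DNA replication genes (22.7%), and in 13.9% of the 10468 tested genes with a promoter. CCAAT was in 17 of the 21 mitosis genes and in 41.9% of tested genes. Stretches of 100 bases upstream of the start of 3 genes that fell are printed on the gene's own strand with the CHR letters, on either strand, in capitals. A match describes the sequence and is not evidence of a bound factor.
Kif11, chr19:37376282-37376381, plus strand: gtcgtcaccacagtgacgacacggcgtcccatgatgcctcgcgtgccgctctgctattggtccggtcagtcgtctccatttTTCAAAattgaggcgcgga
Cdk1, chr10:69352931-69353030, minus strand: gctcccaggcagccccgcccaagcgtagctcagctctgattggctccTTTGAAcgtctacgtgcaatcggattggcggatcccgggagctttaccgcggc
Top2a, chr11:99024316-99024415, minus strand: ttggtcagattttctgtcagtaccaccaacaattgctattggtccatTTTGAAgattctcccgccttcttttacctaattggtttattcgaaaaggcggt

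DNA replication genes were lower in 16 of 26 and higher in none, with a median of −0.52. *Mcm3*, a subunit of the replicative helicase, was at 8.46 and 7.92 on the microgravity arrays and 9.10 and 8.86 on the ground unit arrays and fell by 0.79 ± 0.14 (adjusted p = 0.0014). *Dbf4*, which activates the kinase that fires origins, was at 7.55 and 6.97 on the microgravity arrays and 9.04 and 8.81 on the ground unit arrays and fell by 1.66 ± 0.19 (adjusted p = 7.6e-05). *Cdt1*, which loads the helicase, was at 9.08 and 8.92 on the microgravity arrays and 9.85 and 9.64 on the ground unit arrays and fell by 0.75 ± 0.13 (adjusted p = 0.0017). In these genes both microgravity arrays stood below both ground unit arrays. *Pcna*, the sliding clamp, was at 10.46 and 10.51 on the microgravity arrays and 10.99 and 10.86 on the ground unit arrays, and its call was lost without the microgravity growth array or either ground unit array, with differences from −0.58 to −0.24 and adjusted p up to 0.24. The count was 10 without the microgravity growth array and 3 without the ground osteoinductive array. Cell cycle inhibitors and p53 targets had 7 of 17 lower and none higher. *Cdkn2c*, an inhibitor of CDK4 and CDK6, was at 7.45 and 7.38 on the microgravity arrays and 8.01 and 8.14 on the ground unit arrays and fell by 0.66 ± 0.12 (adjusted p = 0.0017), whereas *Cdkn2a*, the locus of p16 and p19ARF, was at 8.03 and 7.79 on the microgravity arrays and 8.10 and 7.96 on the ground unit arrays and did not pass. The number lower in that list was 2 without the microgravity growth array and 2 without the ground osteoinductive array.

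Genes of the unfolded protein response, which expand the folding capacity of the endoplasmic reticulum, were lower in 22 of 24 and higher in none, with a median of −0.73. *Creld2*, a secreted disulfide isomerase-like chaperone, was at 9.28 and 9.44 on the microgravity arrays and 10.87 and 11.13 on the ground unit arrays and fell by 1.64 ± 0.14, or 3.12-fold (adjusted p = 6.6e-06). *Sdf2l1*, an HSP40-associated reticulum protein, was at 9.07 and 8.54 on the microgravity arrays and 10.33 and 10.56 on the ground unit arrays and fell by 1.65 ± 0.17 (adjusted p = 3e-05). *Hyou1*, a large reticulum chaperone, was at 10.44 and 10.41 on the microgravity arrays and 11.70 and 11.65 on the ground unit arrays and fell by 1.25 ± 0.13 (adjusted p = 3.1e-05). Both media gave nearly the same fall for *Creld2* and *Hyou1*, and no microgravity value reached a ground unit value. *Ddit3*, the transcription factor CHOP, was at 9.17 and 9.36 on the microgravity arrays and 10.46 and 10.66 on the ground unit arrays and fell by 1.30 ± 0.15 (adjusted p = 7.3e-05). *Pdia4*, a protein disulfide isomerase, fell by 1.08, and *Manf*, a secreted survival factor, fell by 0.93. *Herpud1* and *Syvn1*, which act in the degradation of misfolded proteins, fell, with differences of −0.91 and −0.89. *Hspa5*, the master chaperone BiP and one of the brightest genes on the arrays, was at 13.33 and 13.04 on the microgravity arrays and 13.66 and 13.53 on the ground unit arrays (difference −0.41 ± 0.14, adjusted p = 0.042). Its call was lost without any 1 of the 4 arrays compared or of the culture dish arrays, with differences from −0.53 to −0.29 and adjusted p up to 0.35 over the alternatives. Without the microgravity growth array the list had 13 calls.

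The endoplasmic reticulum stress element (ERSE) has the letters CCAAT, any 9 bases, then CCACG. It was in 7 of the 22 unfolded protein response genes with a promoter (31.8%), and in 0.162% of the tested genes with one. The stretches show that element in capitals, read on either strand, for BiP and for genes with a lower level in microgravity.
Hspa5, chr2:34771984-34772083, plus strand: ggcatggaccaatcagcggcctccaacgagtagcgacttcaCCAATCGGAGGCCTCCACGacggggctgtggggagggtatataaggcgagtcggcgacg
Creld2, chr15:88819479-88819578, plus strand: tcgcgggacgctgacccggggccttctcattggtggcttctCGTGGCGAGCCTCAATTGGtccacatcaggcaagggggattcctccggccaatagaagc
Syvn1, chr19:6046476-6046575, plus strand: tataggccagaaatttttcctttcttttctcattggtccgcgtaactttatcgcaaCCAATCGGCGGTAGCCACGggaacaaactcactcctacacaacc

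Interferon-stimulated genes were lower in 20 of 23 and higher in none, with a median of −0.67. Their level also differed between media: *Ifit3*, an antiviral RNA-binding protein, was at 10.01 and 7.39 on the microgravity arrays and 10.43 and 9.26 on the ground unit arrays, so that the microgravity growth array lay above the ground osteoinductive array, and its paralog *Ifit3b*, which may share reads of its probes, was at 7.74 and 5.33 on the microgravity arrays and 8.17 and 7.22 on the ground unit arrays. Within a medium *Ifit3* differed by −0.43 and −1.87. *Gbp3*, a guanylate-binding protein, was at 9.53 and 8.25 on the microgravity arrays and 10.19 and 9.56 on the ground unit arrays and fell by 0.98 ± 0.20 (adjusted p = 0.0044). *Irf7*, the transcription factor that amplifies interferon production, was at 9.27 and 8.08 on the microgravity arrays and 9.70 and 9.23 on the ground unit arrays (difference −0.79 ± 0.17, adjusted p = 0.0048). *Bst2*, tetherin, which holds virus at the cell surface, was at 10.48 and 9.48 on the microgravity arrays and 11.01 and 10.72 on the ground unit arrays (difference −0.89 ± 0.23, adjusted p = 0.014). The calls of *Ifit3*, *Irf7* and *Bst2* were lost without either osteoinductive array of the comparison, those of *Ifit3* and *Bst2* also without the microgravity growth array, and that of *Gbp3* without the ground osteoinductive array. Their adjusted p rose to 0.57, 0.32, 0.31 and 0.35 at most over the alternatives. The list had 7 calls without the microgravity growth array, 12 without the microgravity osteoinductive array and 3 without the ground osteoinductive array.

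Interferon-stimulated genes are bound through the interferon-stimulated response element (ISRE), whose core has the letters GAAA, any 2 bases, then GAAA. The core was in 10 of the 18 genes of the list with a promoter (55.6%), and in 3.50% of the tested genes with one. The stretches of 2 genes of the *Ifit* cluster are shown because each holds 2 copies of it, on the reverse strand, in capitals.
Ifit3, chr19:34583328-34583427, plus strand: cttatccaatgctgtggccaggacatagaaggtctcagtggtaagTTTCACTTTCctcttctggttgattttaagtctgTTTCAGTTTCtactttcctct
Ifit1, chr19:34640740-34640839, plus strand: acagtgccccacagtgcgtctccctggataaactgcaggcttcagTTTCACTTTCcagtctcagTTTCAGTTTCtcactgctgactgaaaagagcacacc
*Ifit1* was at 9.35 and 8.18 on the microgravity arrays and 9.86 and 9.02 on the ground unit arrays (difference −0.67 ± 0.15, adjusted p = 0.0055), and the call was lost without the ground osteoinductive array (adjusted p up to 0.47 over the alternatives).

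Antioxidant and metal response genes were lower in 11 of 20 and higher in none, with a median of −0.57. *Hmox1*, heme oxygenase, was at 11.25 and 9.97 on the microgravity arrays and 11.96 and 11.64 on the ground unit arrays and fell by 1.19 ± 0.23 (adjusted p = 0.0026). *Gclm*, the regulatory subunit of glutathione synthesis, was at 10.61 and 9.51 on the microgravity arrays and 11.42 and 11.14 on the ground unit arrays and fell by 1.22 ± 0.23 (adjusted p = 0.0026). *Prdx1*, a peroxidase, was at 10.61 and 10.49 on the microgravity arrays and 11.41 and 11.29 on the ground unit arrays and fell by 0.80 ± 0.13 (adjusted p = 0.00092). Each was lower in microgravity in both media, by more in osteoinductive medium for *Hmox1* and *Gclm*. *Mt1*, a metallothionein, was at 11.48 and 12.38 on the microgravity arrays and 11.50 and 12.52 on the ground unit arrays and did not pass. The count was 7 without the microgravity growth array and 5 without the ground osteoinductive array.

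Heat shock genes had 2 of 16 higher and 3 lower. Over all tested genes 10.6% were higher and 18.1% lower, so these counts, and those of the sterol genes below, are near that background. *Hspb1*, a small heat shock protein, was at 8.08 and 7.79 on the microgravity arrays and 6.99 and 7.08 on the ground unit arrays and rose by 0.90 ± 0.13 (adjusted p = 0.00038). *Serpinh1*, the collagen chaperone HSP47, was at 8.96 and 8.99 on the microgravity arrays and 9.71 and 9.80 on the ground unit arrays and fell by 0.79 ± 0.12 (adjusted p = 0.00061). The cytosolic chaperone *Hsp90aa1* was at 12.29 and 11.86 on the microgravity arrays and 12.47 and 12.12 on the ground unit arrays and did not pass. Sterol synthesis genes had 2 of 16 higher and 3 lower, with *Hmgcs1*, an early enzyme, at 10.43 and 10.20 on the microgravity arrays and 9.84 and 9.47 on the ground unit arrays (difference 0.66 ± 0.13, adjusted p = 0.0034). Lower members numbered 1 among heat shock genes without either ground unit array. A single heat shock gene was higher without any 1 of the 4 arrays compared, and 1 sterol gene without either growth array of the comparison. The number of sterol genes lower was 1 without the microgravity growth array, 0 without the ground osteoinductive array and 6 without either centrifuge array.

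Hypoxia and glycolysis genes had 1 of 22 higher and 9 lower, with a median of −0.29. The number lower was 0 without the microgravity growth array, 2 without the ground growth array and 5 without the ground osteoinductive array, and none was higher without either growth array of the comparison. *Hk2*, hexokinase, was at 9.43 and 9.91 on the microgravity arrays and 10.50 and 10.54 on the ground unit arrays and *Adm*, adrenomedullin, a vasodilator peptide, was at 8.81 and 9.00 on the microgravity arrays and 9.54 and 9.65 on the ground unit arrays. Both were called lower (adjusted p = 0.0034 and 0.0059), but not without the microgravity growth array (up to 0.074 and 0.062). *Vegfa*, the hypoxia-induced growth factor of vessels, was at 10.63 and 11.17 on the microgravity arrays and 11.05 and 11.13 on the ground unit arrays and did not pass.

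Lysosome and autophagy genes had 6 of 21 lower and none higher. The count was 0 without the microgravity growth array and 1 without either ground unit array. *Sqstm1*, the autophagy adaptor p62, was at 12.61 and 12.32 on the microgravity arrays and 13.08 and 12.92 on the ground unit arrays (difference −0.53 ± 0.12, adjusted p = 0.0076), and its call was lost without the microgravity growth or the ground osteoinductive array (up to 0.12). Clock genes had 4 of 15 lower: *Ciart*, a repressor of the clock, was at 8.43 and 7.75 on the microgravity arrays and 9.26 and 8.92 on the ground unit arrays and fell by 1.00 ± 0.18 (adjusted p = 0.0017), and *Bhlhe40*, another repressor, was at 8.29 and 8.56 on the microgravity arrays and 8.99 and 9.08 on the ground unit arrays. The core clock gene *Arntl* was at 8.87 and 9.35 on the microgravity arrays and 9.34 and 9.36 on the ground unit arrays and did not pass. Immediate early genes had 1 of 22 higher and 6 lower, with *Fos* at 8.41 and 9.08 on the microgravity arrays and 8.51 and 8.70 on the ground unit arrays and *Egr1* at 10.75 and 10.89 on the microgravity arrays and 11.02 and 11.07 on the ground unit arrays, neither of which passed. *Myc*, a growth-promoting transcription factor, was at 10.16 and 9.88 on the microgravity arrays and 10.77 and 10.49 on the ground unit arrays (difference −0.61 ± 0.13, adjusted p = 0.0044), a call lost without the microgravity growth or the ground osteoinductive array (up to 0.12). Members called lower numbered 1 without the microgravity growth array, 3 without the ground growth array and 0 without the ground osteoinductive array. The higher call among them was lost without either osteoinductive array of the comparison or either culture dish array.

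Small nucleolar RNA genes, a list made by name after the values had been seen, were lower in 21 of 46 and higher in none, with a median of −0.38. They guide the chemical modification of ribosomal RNA, and most lie in introns of other genes, so their probes may read the host transcript. *Snord33* was at 7.21 and 7.70 on the microgravity arrays and 8.35 and 8.54 on the ground unit arrays and fell by 1.00 ± 0.12 (adjusted p = 0.00012). *Snora23* was at 8.66 and 8.94 on the microgravity arrays and 9.63 and 9.64 on the ground unit arrays and fell by 0.83 ± 0.13 (adjusted p = 0.00054). The count was 9 without the microgravity growth array, 12 without the ground growth array and 10 without the ground osteoinductive array.

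Osteoblast genes and stromal markers were called in both directions, as were all tested genes (10.6% higher and 18.1% lower). Osteoblast genes had 3 of 15 higher and 3 lower, with a median of 0.02, and 5 higher without either centrifuge array. None was lower without the microgravity growth array and 1 without either ground unit array. *Ibsp*, bone sialoprotein, which nucleates mineral, was at 8.58 and 8.00 on the microgravity arrays and 6.07 and 6.35 on the ground unit arrays and rose by 2.08 ± 0.18 (adjusted p = 7.4e-06). Its ground unit values lay under the filter level of 7.14, so it was tested through the arrays on which it is high, as were *Bmp5*, *Serping1*, *Hspb1* and *Lum*. Among genes that fell, *Bub1*, *Cenpe*, *Kif11* and *C1ra* lay under that level on both microgravity arrays. *Smpd3*, a sphingomyelinase needed for mineralization, was at 8.01 and 7.98 on the microgravity arrays and 7.34 and 7.26 on the ground unit arrays and rose by 0.70 ± 0.12 (adjusted p = 0.0018). *Ostn*, osteocrin, a peptide of bone and muscle, was at 9.26 and 9.72 on the microgravity arrays and 10.11 and 10.13 on the ground unit arrays and fell by 0.63 ± 0.14 (adjusted p = 0.0054), a call lost without the microgravity or ground growth array (up to 0.085). *Alpl*, the alkaline phosphatase of osteoblasts, was at 7.93 and 7.82 on the microgravity arrays and 7.58 and 7.50 on the ground unit arrays and did not pass (adjusted p = 0.072). Of 15 stromal markers tested 2 were higher and 4 lower, with a median of −0.19 that turned to 0.04 under quantile normalization. The number lower was 0 without the microgravity growth array and 2 without either ground unit array, and 4 were higher without the microgravity osteoinductive array. *Mcam*, a marker of perivascular stromal cells and of endothelium, was at 8.76 and 9.49 on the microgravity arrays and 7.96 and 8.06 on the ground unit arrays and rose by 1.12 ± 0.16 (adjusted p = 0.00045), while *Cd44*, the hyaluronan receptor, was at 8.74 and 8.38 on the microgravity arrays and 9.47 and 9.11 on the ground unit arrays (difference −0.73 ± 0.15, adjusted p = 0.0039). The call of *Cd44* was lost without the microgravity growth array (up to 0.16). *Pdgfrb*, given above, differed by −0.69 ± 0.14 (adjusted p = 0.0042), a call lost without the microgravity or ground growth array (up to 0.089).

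Collagen genes had 1 of 22 higher and 7 lower, with a median of −0.08 that turned to 0.02 under quantile normalization. *Col14a1*, a fibril-associated collagen, was at 8.61 and 8.69 on the microgravity arrays and 7.41 and 7.50 on the ground unit arrays and rose by 1.20 ± 0.11 (adjusted p = 1.4e-05). *Col8a1*, a short-chain collagen, was at 9.74 and 8.67 on the microgravity arrays and 10.54 and 9.98 on the ground unit arrays and fell by 1.05 ± 0.17 (adjusted p = 0.00097). *Col6a2*, a chain of the beaded-filament collagen VI, was at 9.91 and 10.20 on the microgravity arrays and 10.67 and 10.75 on the ground unit arrays and fell by 0.65 ± 0.12 (adjusted p = 0.0017). *Col1a1* and *Col3a1*, the main fibrillar collagens of the cells, did not pass, at differences of 0.02 ± 0.12 and −0.19 ± 0.12. Lower calls came to 2 without the microgravity growth array, 3 without the ground growth array and 4 without the ground osteoinductive array.

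Among matrix glycoproteins and elastic fibre genes 7 of 26 were higher and 8 lower. *Eln*, elastin, was at 10.16 and 11.86 on the microgravity arrays and 8.65 and 8.46 on the ground unit arrays, a difference of 1.51 with growth medium and 3.40 with osteoinductive medium (adjusted p = 0.00033). *Fbn2*, the fetal microfibril protein fibrillin-2, was at 8.27 and 8.30 on the microgravity arrays and 7.03 and 7.15 on the ground unit arrays and rose by 1.19 ± 0.12 (adjusted p = 3e-05). *Ltbp2*, a microfibril-associated protein, was at 9.12 and 8.52 on the microgravity arrays and 10.07 and 9.82 on the ground unit arrays and fell by 1.13 ± 0.14 (adjusted p = 0.00011). *Loxl3*, a crosslinking enzyme, was at 9.40 and 9.40 on the microgravity arrays and 10.38 and 10.35 on the ground unit arrays and fell by 0.97 ± 0.17 (adjusted p = 0.0018). *Fn1*, fibronectin, was at 12.99 and 13.62 on the microgravity arrays and 13.39 and 13.53 on the ground unit arrays and did not pass. Without either growth array of the comparison 4 were higher. The number lower was 4 without the microgravity growth array, 5 without the ground growth array and 3 without the ground osteoinductive array.

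Of 9 small leucine-rich proteoglycans 3 were higher and none lower, and 1 was higher without the microgravity growth array. *Lum*, lumican, was at 7.79 and 7.46 on the microgravity arrays and 6.84 and 6.63 on the ground unit arrays (difference 0.89 ± 0.16, adjusted p = 0.0017), whereas *Dcn*, decorin, at 10.23 and 11.11 on the microgravity arrays and 10.66 and 10.91 on the ground unit arrays, did not pass. Among proteases and inhibitors 2 of 17 were higher and 5 lower, and *Timp1*, the inhibitor of metalloproteases, was at 8.91 and 9.35 on the microgravity arrays and 10.01 and 10.20 on the ground unit arrays and fell by 0.98 ± 0.13 (adjusted p = 0.00016). Calls of lower members came to 1 without the microgravity or ground growth array, 3 without either culture dish array and 9 without the microgravity osteoinductive array. Protease and inhibitor genes had none higher without the microgravity growth or the ground osteoinductive array, and 1 without the ground growth array or either centrifuge array.

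Genes through which stromal cells steer osteoclasts had 2 of 12 higher and 3 lower. *Tnfsf11*, which encodes RANKL, was at 8.60 and 8.31 on the microgravity arrays and 8.49 and 8.45 on the ground unit arrays and its decoy receptor *Tnfrsf11b*, osteoprotegerin, was at 8.47 and 8.06 on the microgravity arrays and 8.36 and 8.25 on the ground unit arrays. Neither passed, at differences of −0.02 ± 0.14 and −0.04 ± 0.13. *Csf1*, the growth factor of osteoclast precursors, was at 10.83 and 10.39 on the microgravity arrays and 11.36 and 11.04 on the ground unit arrays (difference −0.59 ± 0.13, adjusted p = 0.0066), a call lost without the microgravity growth or ground osteoinductive array (up to 0.23). The number lower was 0 without the microgravity growth array, 5 without the microgravity osteoinductive array and 1 without the ground osteoinductive array. None was higher without the microgravity growth array and 1 without the ground osteoinductive array. Adipogenic genes had 3 of 14 higher and 1 lower, and *Apoe*, apolipoprotein E, was at 9.95 and 9.88 on the microgravity arrays and 9.19 and 8.92 on the ground unit arrays and rose by 0.86 ± 0.12 (adjusted p = 0.00035). *Cebpa*, an adipogenic transcription factor, was at 7.85 and 8.17 on the microgravity arrays and 7.64 and 7.90 on the ground unit arrays and did not pass. *Pparg*, the master regulator of fat cells, was dim on all arrays. The number of adipogenic genes higher was 1, and the number lower 0, without the microgravity or ground growth array, and 3 were lower without the microgravity osteoinductive array.

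In the Wnt pathway 2 of 21 genes were higher and 4 lower, near the shares of all tested genes (10.6% higher and 18.1% lower). *Sfrp2*, a secreted Wnt modulator, was at 9.01 and 8.74 on the microgravity arrays and 7.40 and 7.26 on the ground unit arrays and rose by 1.54 ± 0.19 (adjusted p = 0.00012). *Dkk2*, a Wnt antagonist, was at 8.72 and 7.71 on the microgravity arrays and 9.40 and 8.69 on the ground unit arrays and fell by 0.83 ± 0.14 (adjusted p = 0.0010), with overlap between media. *Axin2*, a target of Wnt signalling, was at 8.03 and 8.14 on the microgravity arrays and 8.02 and 8.11 on the ground unit arrays and did not pass. BMP and TGF-beta genes had 5 of 26 higher and 2 lower, led by the ligand *Bmp5* at 7.74 and 7.93 on the microgravity arrays and 6.86 and 6.86 on the ground unit arrays (difference 0.98 ± 0.12, adjusted p = 0.00010) and the target *Id2* at 9.49 and 9.36 on the microgravity arrays and 8.87 and 8.49 on the ground unit arrays (difference 0.75 ± 0.14, adjusted p = 0.0028). *Tgfb1*, the ligand stored in bone matrix, was at 8.60 and 8.57 on the microgravity arrays and 8.77 and 8.94 on the ground unit arrays and did not pass. Without the microgravity growth array, or without the ground osteoinductive array, 1 Wnt gene was lower and 2 BMP and TGF-beta genes were higher, and the latter count was also 2 without the ground growth array. No BMP or TGF-beta gene was lower without the microgravity growth or the ground osteoinductive array, and 1 Wnt gene was higher without either growth array of the comparison.

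Insulin-like growth factor genes had 4 of 14 higher and 1 lower, and the number lower was 0 without the microgravity growth or the ground osteoinductive array and 2 without the microgravity osteoinductive array. The binding proteins led: *Igfbp5* was at 9.87 and 10.35 on the microgravity arrays and 7.80 and 9.25 on the ground unit arrays and rose by 1.58 ± 0.23 (adjusted p = 0.00042), and *Igfbp3* was at 8.76 and 8.58 on the microgravity arrays and 7.56 and 7.42 on the ground unit arrays and rose by 1.18 ± 0.13 (adjusted p = 4.5e-05). *Igfbp2* was at 8.75 and 8.34 on the microgravity arrays and 7.37 and 7.39 on the ground unit arrays and rose by 1.17 ± 0.15 (adjusted p = 0.00015). *Igf1r*, the receptor, was at 8.74 and 9.57 on the microgravity arrays and 9.20 and 9.49 on the ground unit arrays and did not pass.

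Chemokine and cytokine genes had 1 of 15 higher and 5 lower. *Cx3cl1*, the membrane-bound chemokine fractalkine, was at 8.63 and 8.45 on the microgravity arrays and 9.18 and 9.28 on the ground unit arrays (difference −0.69 ± 0.12, adjusted p = 0.0016), a call lost without the ground osteoinductive array (up to 0.053). *Cxcl10*, an interferon-induced chemokine, was at 9.58 and 7.11 on the microgravity arrays and 10.01 and 9.11 on the ground unit arrays, and its difference of −1.22 ± 0.34 (adjusted p = 0.019) was lost without either microgravity array or the ground osteoinductive array (adjusted p up to 0.50). *Ccl2*, which draws monocytes, was at 9.05 and 8.63 on the microgravity arrays and 9.66 and 9.06 on the ground unit arrays and did not pass. Lower members came to 1 without the microgravity growth array and 0 without the ground osteoinductive array, and none was higher without the microgravity growth array or either ground unit array.

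Prostaglandin genes had 1 of 9 higher and 2 lower, with *Ptgs2*, the inducible cyclooxygenase, at 12.22 and 10.78 on the microgravity arrays and 12.67 and 11.85 on the ground unit arrays (difference −0.76 ± 0.19, adjusted p = 0.0099) and its call lost without either microgravity array or the ground osteoinductive array (adjusted p up to 0.50). No prostaglandin gene was lower without the microgravity growth array or without the ground osteoinductive array, none was higher without either growth array of the comparison, and 2 were higher without either centrifuge array. Complement genes had 2 of 10 higher and 4 lower. *Serping1*, the inhibitor of complement component C1, was at 8.08 and 9.31 on the microgravity arrays and 6.75 and 7.10 on the ground unit arrays and rose by 1.78 ± 0.23 (adjusted p = 0.00020), while the protease *C1ra* was at 6.59 and 6.54 on the microgravity arrays and 7.44 and 7.43 on the ground unit arrays and fell by 0.87 ± 0.13 (adjusted p = 0.00057). The number of complement genes lower was 1 without either growth array of the comparison and 2 without the ground osteoinductive array. Of the 15 glucocorticoid targets 4 were higher and none lower, with *Glul*, glutamine synthetase, at 9.82 and 10.39 on the microgravity arrays and 8.47 and 9.35 on the ground unit arrays (difference 1.19 ± 0.17, adjusted p = 0.00043), and 2 were higher without the ground osteoinductive array.

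Cytoskeletal genes were lower more often than higher, as were all tested genes (18.1% lower and 10.6% higher, with a median of −0.09). Actin and smooth muscle genes had 2 of 23 higher and 11 lower, with a median of −0.35. *Acta2*, smooth muscle actin, was at 10.63 and 10.87 on the microgravity arrays and 12.25 and 12.43 on the ground unit arrays and fell by 1.59 ± 0.20, or 3.01-fold (adjusted p = 0.00016). *Flnc* and *Flna*, the filamins that crosslink actin, were at 10.37 and 10.20 on the microgravity arrays and 11.35 and 11.29 on the ground unit arrays and at 10.78 and 11.39 on the microgravity arrays and 11.78 and 11.88 on the ground unit arrays. Their differences were −1.03 ± 0.14 (adjusted p = 0.00018) and −0.75 ± 0.14 (adjusted p = 0.0028). *Des*, desmin, the intermediate filament of muscle, was at 7.93 and 8.33 on the microgravity arrays and 6.93 and 7.21 on the ground unit arrays and rose by 1.06 ± 0.16 (adjusted p = 0.00049). *Tagln* was also called higher, with differences of 0.23 to 0.90 over the alternatives. That call was lost under quantile normalization and without either osteoinductive array of the comparison. The number lower was 4 without the microgravity growth array, 5 without the ground growth array and 6 without the ground osteoinductive array, and 1 was higher without either osteoinductive array of the comparison.

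Integrin and focal adhesion genes had 1 of 21 higher and 9 lower, with a median of −0.35. *Itgav*, the alpha chain of vitronectin receptors, was at 9.72 and 10.04 on the microgravity arrays and 10.73 and 10.57 on the ground unit arrays and fell by 0.77 ± 0.13 (adjusted p = 0.0014). *Parva*, parvin, which links integrins to actin, was at 9.61 and 9.69 on the microgravity arrays and 10.25 and 10.44 on the ground unit arrays and fell by 0.70 ± 0.12 (adjusted p = 0.0011). *Itgb1*, the common beta chain, was at 11.78 and 12.12 on the microgravity arrays and 12.25 and 12.08 on the ground unit arrays and did not pass. Mechanosensing and Hippo target genes had 1 of 23 higher and 11 lower, with a median of −0.34. *Piezo1*, a stretch-gated channel, was at 10.22 and 10.51 on the microgravity arrays and 11.11 and 11.10 on the ground unit arrays and fell by 0.74 ± 0.13 (adjusted p = 0.0016). *Piezo2*, its relative in sensory neurons, was at 8.11 and 8.53 on the microgravity arrays and 7.18 and 7.16 on the ground unit arrays and rose by 1.15 ± 0.14 (adjusted p = 0.00012). *Emd*, emerin of the nuclear envelope, was at 8.92 and 8.90 on the microgravity arrays and 9.66 and 9.60 on the ground unit arrays and fell by 0.72 ± 0.12 (adjusted p = 0.0012). *Yap1*, the effector of the Hippo pathway, was at 9.01 and 9.15 on the microgravity arrays and 9.42 and 9.32 on the ground unit arrays and did not pass. Members called lower came to 4 in the integrin list and 2 in the mechanosensing list without either growth array of the comparison, and 5 and 4 without the ground osteoinductive array. In the mechanosensing list it was 6 without either culture dish array. The higher call of the integrin list was lost without the microgravity osteoinductive array or either ground unit array.

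**Figure D4:**
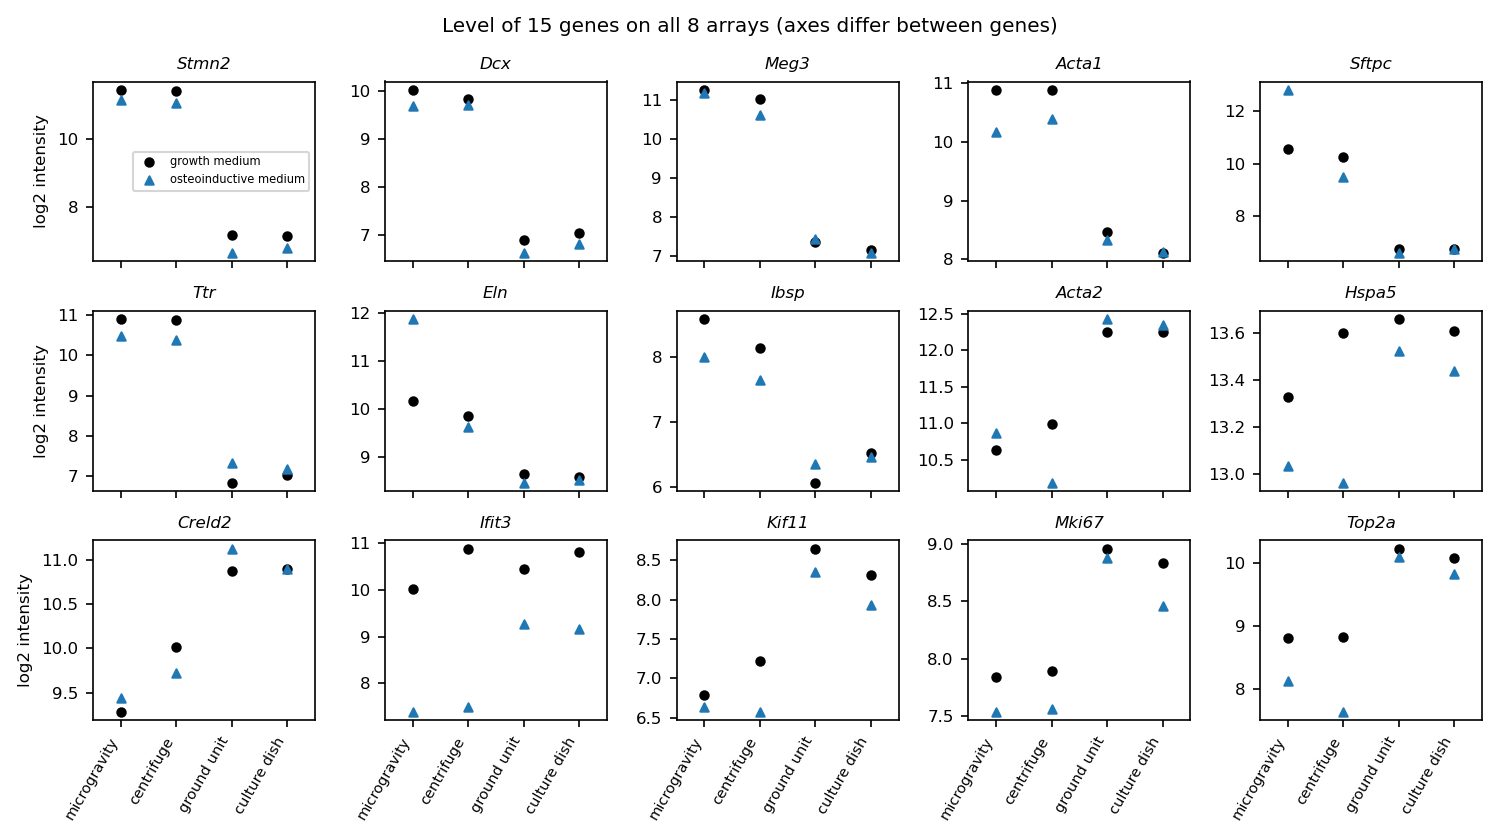
Log2 intensity (y axis, scaled by gene) of 15 genes on all 8 arrays, by condition (x axis), with circles for growth medium and triangles for osteoinductive medium. *Stmn2*, *Dcx*, *Meg3*, *Acta1* and *Ttr* are high on both flight conditions and low on both ground conditions, and *Sftpc* is highest on the osteoinductive microgravity array, at 12.81.

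Some genes differed by medium in their distance from the ground unit. With 1 array a side in each medium, these differences have no test. The largest gaps toward osteoinductive medium were in *Lyz1*, lysozyme, with differences of 1.46 and 4.82, *Slc34a2* with 1.21 and 4.09, *Sftpa1* with 0.62 and 3.16, *Sftpc*, *Cldn18*, a junction protein of lung and stomach, with 0.67 and 2.97, and *Cbr2*, a lung carbonyl reductase, with 0.71 and 2.85. Toward growth medium they were in *Sox2*, a stem and progenitor factor, with 2.69 and 0.96, *Fst*, the activin antagonist follistatin, with 1.76 and 0.10, and the histones *H2bc14* and *H4c3*, with *Cxcl10* and *Ifit3b* lower mainly in osteoinductive medium. Across genes, osteoinductive minus growth medium had an SD of 0.225 in the ground unit and 0.354 in microgravity.

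The centrifuge arrays flew beside the microgravity arrays and share the ground unit arrays as the control, so their values are set side by side. Microgravity minus centrifuge gave 0 of 13205 genes past the adjusted threshold (0.00%) by limma, with 1507 genes at an unadjusted p under 0.05. The 25 neuron genes had a median of 1.51 in centrifuge minus ground unit and 0.19 in microgravity minus centrifuge, and the mitosis genes −1.43 and −0.04. Lung epithelium genes had 0.24 and 0.91, unfolded protein response genes −0.47 and −0.25, and interferon-stimulated genes −0.38 and −0.28. The skeletal muscle medians were 0.83 and 0.08, and those of the microRNA genes of the *Dlk1* region 0.56 and 0.32. *Gpm6a* was at 11.21 and 10.73 on the centrifuge arrays, *Acta1* at 10.89 and 10.40, *Kif11* at 7.23 and 6.57 and *Creld2* at 10.01 and 9.72. The median difference of the culture dish from the ground unit was −0.23 for mitosis genes and between −0.10 and 0.01 for the other lists just named, and 0 genes passed there, with 269 at an unadjusted p under 0.05.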

How the data were processed

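The authors deposited 1 table of normalized expression values, read here as linear intensity because the array medians lie between 181 and 196; RMA and GCRMA are listed in the submitters' processing notes, and which of them made these values, the array's genome build and any aligner are not given in the sources used here. RNA (100 ng per sample) was amplified and labelled with biotin, per the labels' protocols. Here log2 was taken of each value, and 21789 of 35557 probe sets had 1 gene symbol in the platform annotation (1621 several, 12147 none). The probe set with the highest mean stood for each of 19938 genes. Genes with a mean log2 level above the 40th percentile of probe sets (7.14) were tested, 13205 in all, with a second fit over all genes. limma 3.58.1 in R 4.3.3 fitted condition and medium over all 8 arrays (3 residual degrees of freedom), tested on simulated data, with two-sided p-values, Benjamini-Hochberg adjustment and a threshold of 0.05. Genes named were the highest and lowest called genes, key and largest members of each list, the brightest called genes and those differing most between media. The arrays compared and the gene lists were chosen with earlier results of these data known, so counts are descriptions, and list members were not tested as sets. No replicate numbers pair the arrays; medium is the pairing. Each array left out, other filters and normalizations are described at the end.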

Additional observations from a re-analysis of the deposited data

Results flagged for a closer look

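The histone genes *H2bc14* and *H4c3* had differences of opposite sign in the media. For *H2bc14*, microgravity minus ground unit was 0.93 in growth medium and −1.06 with osteoinductive medium, and the osteoinductive difference minus the growth difference was −1.99. *H4c3* was at 0.66 and −0.99, a gap of −1.65. Opposite signs, with a difference over 0.3 in each medium, were looked for only among the named genes and not among all tested genes. These histone genes had been named because their gap between media was among the largest. With 1 array a side in each medium the gap between media was not tested, and histone genes have near-identical copies whose probes can share signal.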

How the results depend on the processing

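Of the 307 named genes called, 0 reversed in the alternatives run; calls were lost in 60 under quantile normalization, 158 without a term for medium, 19 with only the 4 arrays compared, 17 of 217 with no filter on dim genes and 46 to 120 without 1 microgravity or ground unit array.

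Without 1 array the count of called genes ran from 1377 to 4695, higher from 828 to 1616 and lower from 544 to 3079. The lists' counts ran from 22 to 23 for neuron genes, 11 to 14 for skeletal muscle, 3 to 12 for lung epithelium, 6 to 13 for endothelium, 4 to 11 for cartilage, 11 to 13 for imprinted genes and 26 to 36 for microRNA genes between *Dlk1* and *Dio3*. Those lower ran from 20 to 23 for mitosis, 3 to 17 for DNA replication, 13 to 24 for the unfolded protein response, 3 to 21 for interferon, 5 to 12 for antioxidant genes and 4 to 12 for actin genes.

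Without a term for medium 1295 genes were called, 777 higher and 518 lower, with 2 lung epithelium, 6 endothelial and 6 cartilage genes higher and 2 DNA replication, 2 interferon, 1 antioxidant and 4 actin genes lower. The stricter filter, at the 60th percentile, tests fewer genes: 591 were called higher, with 15 neuron, 7 skeletal muscle, 3 lung epithelium, 3 endothelial, 2 cartilage, 7 imprinted and 6 microRNA genes higher and 13 mitosis genes lower. The filter at the 40th percentile left 14 microRNA genes called, and quantile normalization left 6 actin genes lower; the cause of that last change was not tested. The alternatives for the identity and microRNA lists were added after seeing the data. Medium pairs the arrays and is a term of the fit, and with only the 4 arrays compared, paired in that way, 3506 genes were called. The labels give no replicate numbers for a further block. With 2 arrays a side, few degrees of freedom limit what can be called, and probes near background have compressed differences.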
